A study of Rattus norvegicus with 15 samples.

Results

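E2F transcription factors, their repressor Rb1 and the D and E cyclins form the switch that commits a cell to replicate its DNA, and 10 of these genes were examined in sorted rat hepatocytes of different DNA content: E2f1, E2f3, E2f7, E2f8, Ccne1, Ccne2, Ccnd1, Ccnd2, Ccnd3 and Rb1. They were chosen by name as known regulators of hepatocyte ploidy. These genes and the gene lists used below were chosen with earlier results of these data known. All 10 genes had at least 1 probe with their name on the array, 13 probes in all, and 8 of the 10 were measured above background on enough arrays to be tested, out of 17040 tested genes. E2f8 and Ccnd2 were not. The study sorted Hoechst-stained hepatocytes of female Wistar rats into 2c, 4c and 8c fractions, where 2c is the DNA content of a diploid cell before replication, and hybridised the RNA of each fraction to a one-colour array. There were 5 independent experiments, with 1 array per fraction in each, so n = 5 per group and 15 arrays in all. The rats were 12, 14, 6, 5 and 6 weeks old in experiments 1 to 5. No treatment or genetic change is given, the number of animals behind an experiment is not stated, and a 4c or 8c event by DNA content alone can also be a cell of the next lower ploidy after replication.

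In a resting cell Rb1 and its relatives hold the activating factors E2f1, E2f2 and E2f3 in check. D cyclins with Cdk4 or Cdk6, and then E cyclins with Cdk2, phosphorylate Rb1 and release E2F, which turns on genes for DNA replication, among them the E cyclins. E2f7 and E2f8 lack the dimerisation partner that other E2F proteins need and repress the same targets. In mice, loss of E2f7 and E2f8 leaves the liver largely diploid, and loss of E2f1 has the opposite effect.

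Promoter sequences are given for the genes on which the results turn: Ccne1, which passed the test in 1 comparison, E2f3 and Rb1, which hold an E2F word, and Mcm3 and Mcm5, E2F target genes described further on. Each is 250 bases before to 50 bases after the gene's start in RefSeq, build GRCr8, read in the direction of the gene. RefSeq's table had such a sequence for 5 of the 10 genes, E2f3, E2f7, Ccne1, Ccnd3 and Rb1. Capitals mark 4 E2F words searched on both strands, TTTCCCGC, TTTGGCGC, TTTCGCGC and TTTGCCGC, which can overlap each other on opposite strands. The Ccne1 sequence lies at chr1:99927860-99928159 on the minus strand, E2f3 at chr17:34810166-34810465 on the plus strand, Rb1 at chr15:54911808-54912107 on the minus strand, Mcm3 at chr9:30733697-30733996 on the minus strand, and Mcm5 at chr19:13488563-13488862 on the plus strand.
Ccne1: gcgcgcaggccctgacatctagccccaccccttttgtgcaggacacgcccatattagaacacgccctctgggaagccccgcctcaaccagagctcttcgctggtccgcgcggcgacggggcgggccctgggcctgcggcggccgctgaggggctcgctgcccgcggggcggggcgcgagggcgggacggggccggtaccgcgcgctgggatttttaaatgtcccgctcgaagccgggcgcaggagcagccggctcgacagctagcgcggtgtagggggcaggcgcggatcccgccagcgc
E2f3: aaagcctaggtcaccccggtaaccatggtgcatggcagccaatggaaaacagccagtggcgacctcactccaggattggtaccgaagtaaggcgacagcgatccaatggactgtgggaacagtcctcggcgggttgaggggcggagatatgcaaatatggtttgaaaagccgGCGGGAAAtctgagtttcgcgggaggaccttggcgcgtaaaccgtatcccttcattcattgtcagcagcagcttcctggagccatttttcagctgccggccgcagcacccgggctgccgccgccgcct
Rb1: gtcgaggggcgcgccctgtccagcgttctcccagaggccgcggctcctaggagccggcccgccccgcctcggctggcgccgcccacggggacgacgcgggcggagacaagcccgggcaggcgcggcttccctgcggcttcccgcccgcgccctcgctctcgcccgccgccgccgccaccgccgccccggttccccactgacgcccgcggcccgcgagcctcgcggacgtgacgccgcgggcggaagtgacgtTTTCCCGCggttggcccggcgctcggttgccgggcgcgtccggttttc
Mcm3: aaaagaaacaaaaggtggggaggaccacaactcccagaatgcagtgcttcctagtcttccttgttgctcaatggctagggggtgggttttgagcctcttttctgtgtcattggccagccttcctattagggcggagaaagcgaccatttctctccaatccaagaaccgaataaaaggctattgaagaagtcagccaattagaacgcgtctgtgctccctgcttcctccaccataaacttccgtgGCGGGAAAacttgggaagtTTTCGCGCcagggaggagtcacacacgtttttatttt
Mcm5: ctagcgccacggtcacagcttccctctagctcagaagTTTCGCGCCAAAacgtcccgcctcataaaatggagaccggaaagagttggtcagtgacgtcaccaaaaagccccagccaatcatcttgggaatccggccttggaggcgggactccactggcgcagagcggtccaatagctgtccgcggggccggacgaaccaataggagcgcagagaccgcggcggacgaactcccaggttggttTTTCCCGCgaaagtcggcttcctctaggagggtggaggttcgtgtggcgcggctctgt
E2f3 held 1 word, TTTCCCGC on the opposite strand, 78 bases before the start. Rb1 held 1 copy of the same word on its own strand, beginning 2 bases after the start. The Ccne1, E2f7 and Ccnd3 sequences held none of the 4 words. Mcm3 held 2 and Mcm5 held 3, of which 2 overlap in a single run of capitals. Over all 33469 promoters of this length in the table, 2.14% held at least 1 word, against 40.0% of the 5 promoters of E2f3, E2f7, Ccne1, Ccnd3 and Rb1 (2 of 5), 13.64% of 22 promoters of other genes of the pathway and 47.62% of 42 promoters of E2F target genes. A word is a match of letters and no measured binding site.

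Levels are log2 of the scanner's processed signal minus the 75th percentile of the same array, so 0 is that percentile, and a difference of 1 is a doubling. A probe's level is not comparable with another probe's. The arrays differed in cells other than hepatocytes. All 8 hepatocyte markers (Alb and Hnf4a among them) were above background on every array. The summed linear level of 9 tested Kupffer cell markers was 0.765 to 15.2 on 2c arrays, 0.163 to 0.625 on 4c arrays and 0.116 to 0.577 on 8c arrays. For 9 stellate cell markers it was 1.24 to 11.6, 0.299 to 0.823 and 0.274 to 0.957 on 2c, 4c and 8c arrays, and for 9 sinusoidal endothelial markers 0.699 to 2.32, 0.363 to 0.877 and 0.386 to 0.649. Of 13 Kupffer cell markers, Cd163, Marco, Vsig4, Timd4 and Adgre1 were above background on no 8c array, and these with C1qc and Cd5l on no 4c array. Marco was above background on no 2c array either. Of the 13, 8 were above background on all 5 2c arrays, 4 on all 5 4c arrays and 2 on all 5 8c arrays. Pancreatic acinar transcripts were high on 6 arrays, the 2c and 8c arrays of experiment 1, all of experiment 2 and the 8c array of experiment 3. The difference of every gene below between 2c and the other fractions runs beside this drop in other cells' markers, and their part in the results was not tested. In such bulk samples fewer cells of a type and less RNA per cell cannot be told apart.

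Ccne1, the E1 cyclin that binds Cdk2 at the start of S phase, was on average lowest in 4c hepatocytes. Its level on the 2c arrays of experiments 1 to 5 was -4.45, -5.63, -4.31, -3.60 and -3.43. On the 4c arrays it was -5.16, -6.54, -5.22, -4.28 and -4.91, and on the 8c arrays -5.35, -5.86, -4.93, -3.75 and -4.88. Experiment 2 was low in every fraction, and its 4c and 8c arrays were the only ones where the probe was not well above background. The groups overlap as a whole, but within each experiment the 4c array was below the 2c array, by 0.68 to 1.48 on the log2 scale. The mean was -5.22 ± 0.82 in 4c and -4.28 ± 0.87 in 2c (SD, n = 5 each), a fitted difference of -0.94 (SE 0.171, 95% interval -1.32 to -0.56), or 1.92-fold lower in 4c. Ccne1 fell by this in limma's fit across all genes with the experiment as a block (Benjamini-Hochberg adjusted p = 0.0386). It was 1 of 8 tested genes to pass for 4c against 2c, where 1.26% of all tested genes passed and 0.998% passed as lower. Of the 8 genes, 4 had an unadjusted p under 0.05 (Ccne1, Ccne2, E2f1 and Ccnd3), all lower in 4c, against 15.9% of all genes in either direction and 10.1% as lower. Of these, Ccne2 entered the test through its 2c arrays, the fraction where it is high. Ccne1 was also 1 of 8 that were lower in all 5 experiments, as were 8.6% of all genes.

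The 4c difference of Ccne1 kept its sign in 36 of 36 other settings, with values of -1.08 to -0.36, and passed in 10 of them. It did not pass without any 1 of the 5 experiments (adjusted p from 0.0520 to 0.175), without the 6 arrays with acinar transcripts (difference -1.03, adjusted p = 0.505), with normexp background correction (-0.36, 0.265), without the experiment as a block (0.845) or with the dim arrays raised to their floor (-0.82, 0.07). With the slide beside the block the adjusted p was 0.0569, and within slides 1 and 2 the differences were -0.84 and -1.08 (adjusted p = 0.271 and 0.627). Adding the slide to the block gave the same values as leaving out the 8c array of experiment 3, so these are not separate settings. Of all 17040 genes, 0 passed for 4c against 2c without the acinar arrays, and 0 within either slide. Leaving out any single 2c or 4c array other than the 2c array of experiment 4, or the 8c array of experiment 3, also ended the call, with adjusted p of at most 0.127. By experiment the 4c difference was -0.72, -0.90, -0.91, -0.68 and -1.48, while the median difference of the Kupffer cell markers was -5.32, -2.37, -2.69, -1.13 and -4.14. Experiment 4 had the smallest difference in both, while experiment 1, with the largest of the markers, had the second smallest of Ccne1, and experiment 5 had the largest of Ccne1. Their relation was not tested. For 8c against 2c the Ccne1 difference was -0.67 (SE 0.171, adjusted p = 0.0798), lower in 5 of 5 experiments. For 8c against 4c it was 0.27 (SE 0.171, 95% interval -0.11 to 0.65, adjusted p = 0.707), higher in 4 of 5.

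**Figure D1:**
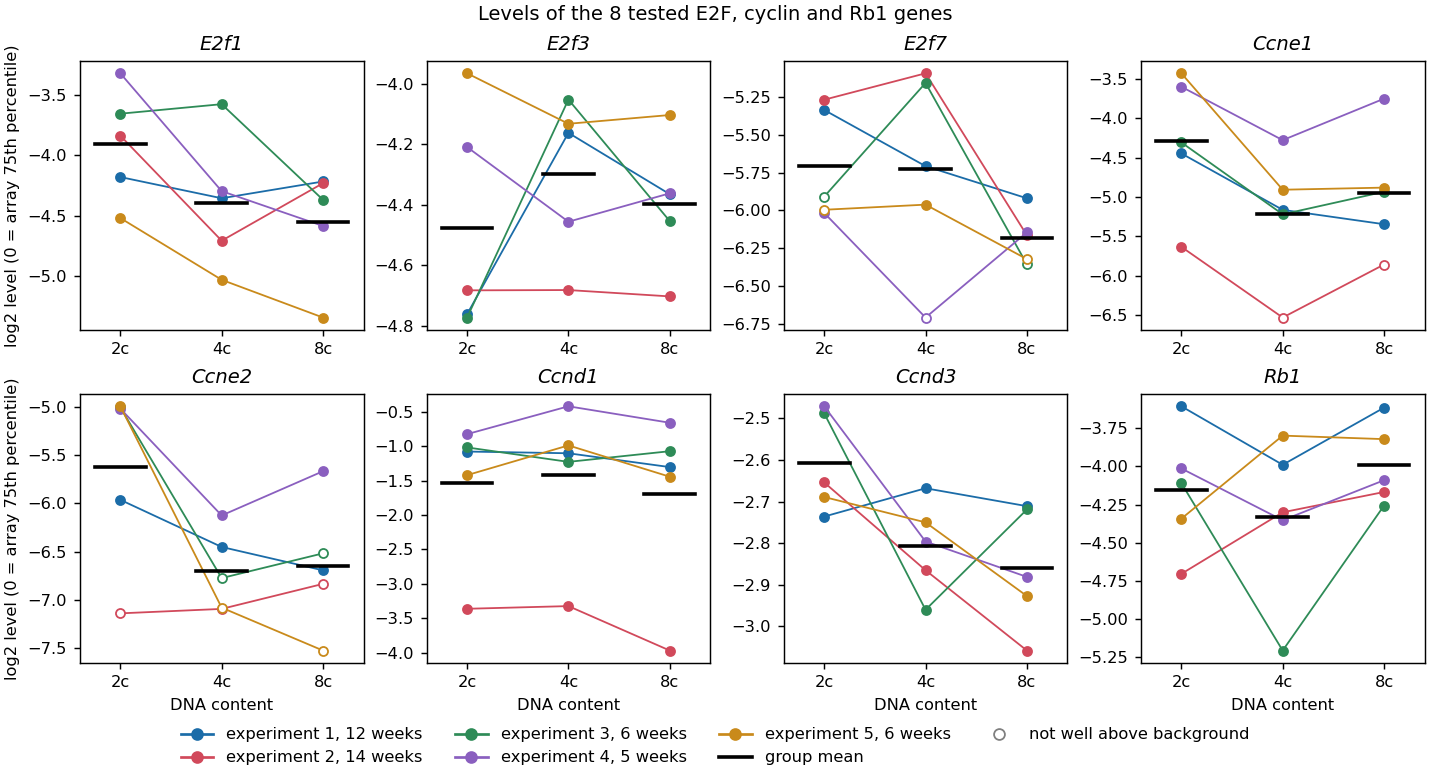
Log2 level of the 8 tested genes (vertical axis, 0 is the array's 75th percentile, each panel with its own range) by DNA content (horizontal axis); a line joins the 3 arrays of an experiment, a bar is the mean of 5 arrays and an open point was not well above background. Ccne1 is lower on every 4c array than on the 2c array of its experiment, and experiment 2 lies apart for Ccnd1.

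Ccne2, the second E cyclin, had a larger SE than the other 7 genes. It was above background on 4 of 5 2c arrays, 2 of 5 4c arrays and 2 of 5 8c arrays, so that it entered the test through the 2c arrays. Its level on the 2c arrays of experiments 1 to 5 was -5.96, -7.14, -5.01, -5.02 and -4.99. On the 4c arrays it was -6.45, -7.09, -6.77, -6.12 and -7.08, and on the 8c arrays -6.69, -6.83, -6.52, -5.67 and -7.52. Experiments 1, 3, 4 and 5 were lower in 4c and 8c than in 2c, and experiment 2, dim in all 3 fractions, was not. The mean difference was -1.08 for 4c against 2c (SE 0.331, adjusted p = 0.156) and -1.02 for 8c against 2c (SE 0.331, adjusted p = 0.171). Neither passed, nor did 8c against 4c at 0.06 (SE 0.331, adjusted p = 0.978). The differences to 2c rest partly on arrays where the probe was not well above background. With normexp background correction they were -0.31 for 4c and -0.32 for 8c.

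E2f1, the activating factor best known for driving S phase, was above background on all 15 arrays. Its level on the 2c arrays was -4.18, -3.84, -3.65, -3.32 and -4.52. On the 4c arrays it was -4.36, -4.71, -3.58, -4.30 and -5.03, and on the 8c arrays -4.22, -4.23, -4.37, -4.58 and -5.34. The 8c array was below the 2c array in 5 of 5 experiments, by only 0.04 in experiment 1 and by 1.27 in experiment 4, and the groups overlap. The mean was -4.55 ± 0.47 in 8c and -3.90 ± 0.46 in 2c (SD, n = 5 each), a difference of -0.65 (SE 0.191, adjusted p = 0.136). For 8c against 2c, 0 of the 8 genes passed limma's test, where 2.34% of all tested genes did, 1.53% as lower and 0.81% as higher. Of the 8 genes 4 had an unadjusted p under 0.05 (E2f1, Ccne1, Ccne2 and Ccnd3), all lower in 8c, against 15% of all genes in either direction and 8.52% as lower. Ccne2 is counted here too, though it entered the test through its 2c arrays. E2f1, E2f7 and Ccne1, 3 of 8, were lower in all 5 experiments, as were 7.96% of all genes. For E2f7 neither the 2c nor the 8c array was well above background in experiments 3 and 5. For 4c against 2c E2f1 differed by -0.49 (SE 0.191, adjusted p = 0.255), lower in 4 of 5 experiments, and for 8c against 4c by -0.16 (SE 0.191, adjusted p = 0.855).

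E2f3, the other activating factor examined, showed little difference. It ranged from -4.77 to -3.96 in 2c, from -4.68 to -4.05 in 4c and from -4.70 to -4.10 in 8c, with medians of -4.68, -4.16 and -4.37. The differences were 0.08 for 8c against 2c (95% interval -0.22 to 0.38), 0.18 for 4c against 2c (-0.12 to 0.48) and -0.10 for 8c against 4c (-0.40 to 0.20), and none passed. The direction varied between experiments in each comparison.

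E2f7, the repressor, was close to the detection limit. Its brighter probe was above background on 3 of 5 2c arrays, 4 of 5 4c arrays and 2 of 5 8c arrays. The levels were -5.33, -5.27, -5.91, -6.02 and -6.00 on 2c arrays. They were -5.71, -5.09, -5.16, -6.71 and -5.96 on 4c arrays and -5.92, -6.17, -6.36, -6.15 and -6.32 on 8c arrays. The 8c array was below the 2c array in each experiment, with a fitted difference of -0.48 (SE 0.223, adjusted p = 0.354). In experiments 3 and 5 neither of these arrays was well above background, so the direction there was not measured. The 8c array of experiment 2 was not well above background either. Its floor was -5.67, below the -5.27 of the 2c array, so the difference there is a bound and not a measured value. The difference was -0.02 for 4c against 2c and -0.46 for 8c against 4c, with adjusted p of 0.974 and 0.639. A second E2f7 probe was too dim to be tested. It was above background only on the 8c arrays of experiments 4 and 5, at -5.57 and -5.51, and on no 2c or 4c array.

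E2f8, the partner of E2f7 in repression, was not well above background on any of the 15 arrays with either of its probes, so no fold is given. Another probe, named in the files by a transcript and described there as E2f8, is outside the rule for naming. It was above background on 2 of 5 2c arrays (-4.65 and -6.09 in experiments 3 and 4), 1 of 5 4c arrays (-5.72 in experiment 2) and 3 of 5 8c arrays (-5.82, -5.94 and -5.40 in experiments 1, 3 and 4). Ccnd2, the D2 cyclin, was above background on 1 of 5 2c arrays (experiment 1, at -5.06), 1 of 5 4c arrays (experiment 3, at -5.10) and 0 of 5 8c arrays. These genes could not be compared between fractions at this detection limit.

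**Figure D2:**
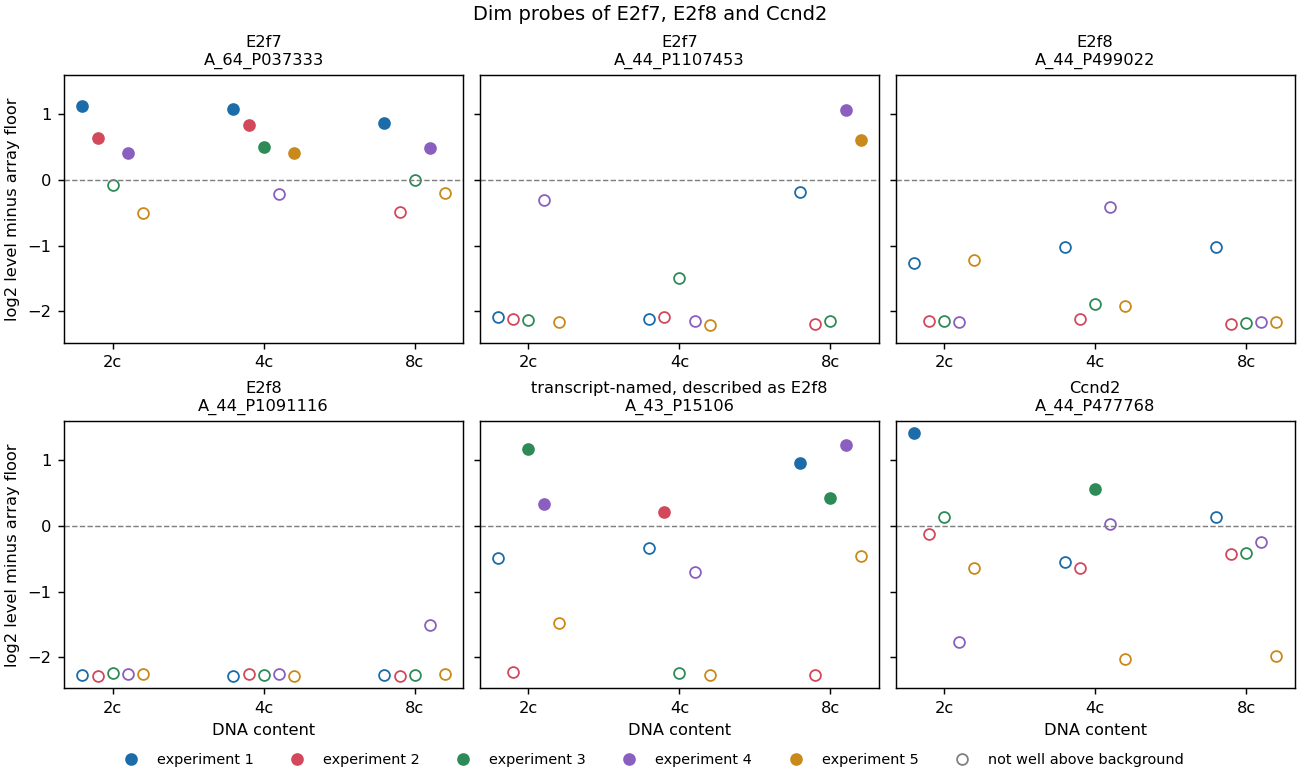
Log2 level of the dim probes minus the floor of the array, the lowest level among its probes well above background (vertical axis), by DNA content (horizontal axis), with 1 point per array and open points where the probe was not well above background. Both E2f8 probes have open points on all 15 arrays, and the second E2f7 probe is filled on 2 arrays, both 8c.

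The D cyclins start the switch with Cdk4 and Cdk6. Ccnd1, the D1 cyclin that hepatocytes induce on entering the cycle, was bright on every array but set apart by experiment. Its main probe, spotted 10 times, read -1.08, -3.36, -1.02, -0.82 and -1.42 on the 2c arrays of experiments 1 to 5. On the 4c arrays it read -1.10, -3.32, -1.23, -0.42 and -0.99, and on the 8c arrays -1.30, -3.97, -1.07, -0.66 and -1.44. All 3 arrays of experiment 2 were low, at -3.97 to -3.32, against -1.44 to -0.42 on the other 12 arrays. A second Ccnd1 probe gave the same picture, -3.49 to -3.16 in experiment 2 against -2.06 to -1.10 in the others, and the 2 probes correlated at r = 0.977 (rho = 0.907) over the 15 arrays. The experiment accounted for 96.7% of the sum of squares of Ccnd1 and the DNA content for 1.18%. The differences were -0.15 for 8c against 2c (95% interval -0.43 to 0.13), 0.13 for 4c against 2c (-0.15 to 0.41) and -0.28 for 8c against 4c (-0.56 to 0.00), with adjusted p of 0.641, 0.662 and 0.637.

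Ccnd3, the D3 cyclin, had the smallest SDs of the 8 genes, 0.12, 0.11 and 0.15 in 2c, 4c and 8c. Its level on 2c arrays was -2.74, -2.65, -2.49, -2.47 and -2.69. On 4c arrays it was -2.67, -2.87, -2.96, -2.80 and -2.75, and on 8c arrays -2.71, -3.06, -2.72, -2.88 and -2.93. It was lower than in 2c in 4 of 5 experiments in both other fractions. The difference was -0.25 for 8c against 2c (SE 0.0901, adjusted p = 0.222) and -0.20 for 4c against 2c (SE 0.0901, adjusted p = 0.314), and neither passed. The DNA content took 47.7% of its sum of squares, the experiment 13.8%.

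Rb1, the brake on E2F, did not pass in any comparison. It ranged from -4.70 to -3.61 in 2c, from -5.21 to -3.80 in 4c and from -4.26 to -3.62 in 8c, with medians of -4.11, -4.30 and -4.09. The differences were 0.16 for 8c against 2c (95% interval -0.27 to 0.60), -0.17 for 4c against 2c (-0.61 to 0.26) and 0.34 for 8c against 4c (-0.10 to 0.78), with adjusted p of 0.753, 0.712 and 0.688. The lowest value, -5.21, was the 4c array of experiment 3.

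**Figure D3:**
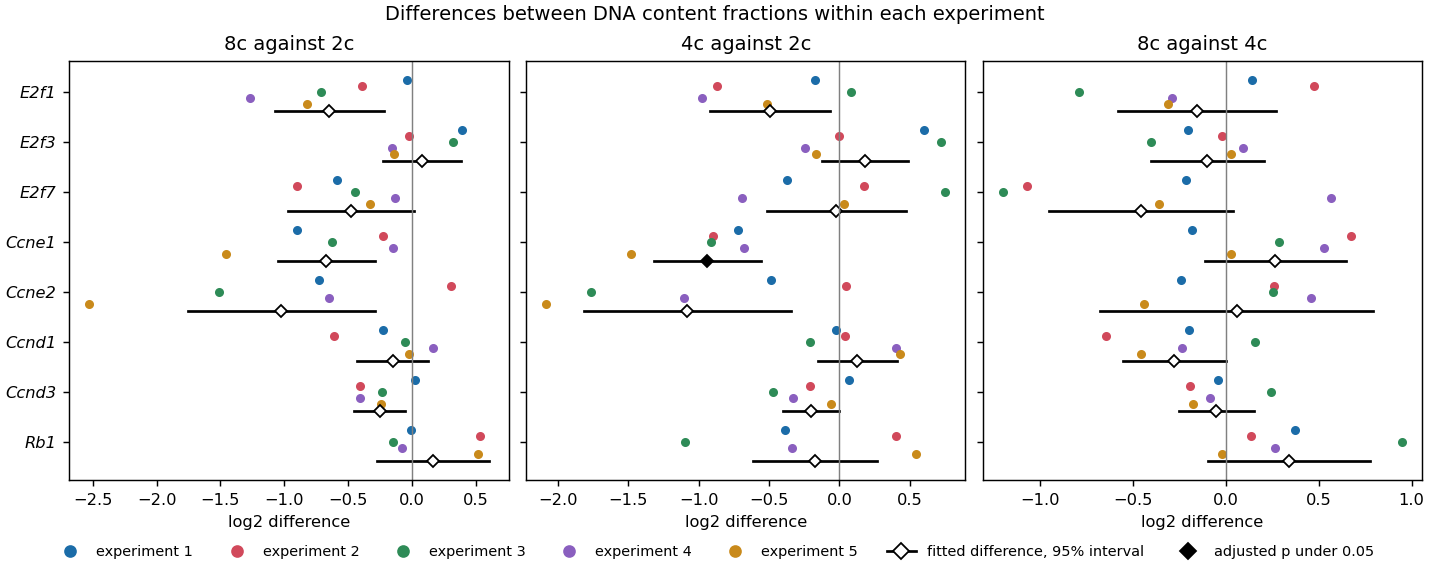
Log2 difference between fractions (horizontal axis) for each tested gene (vertical axis), with 1 coloured point per experiment and a diamond with its 95% interval for the fitted difference. The Ccne1 diamond for 4c against 2c, at -0.94, is the only filled one, and the 3 comparisons share their arrays in pairs.

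For 8c against 4c, 0 of the 8 genes passed limma's test, where 0.64% of all tested genes did, 0.628% as higher and 0.0117% as lower. At an unadjusted p under 0.05 there were 0 of 8, against 7.8% of all genes in either direction and 3.17% as lower. None of the 8 was lower in all 5 experiments, as 4.68% of all genes were. The median difference of the 8 genes was -0.36 for 8c against 2c (all tested genes -0.02), -0.19 for 4c against 2c (all genes -0.03) and -0.08 for 8c against 4c (all genes 0.01). The 8c and the 4c comparison share the 2c arrays.

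The rest of the pathway was followed through 29 genes, with other E2F and Rb family members, cyclin-dependent kinases and their inhibitors, and the DREAM and FoxM1 complex, of which 26 were tested. This list was chosen with earlier results of these data known, so its counts are no independent test. For 8c against 2c 3 of the 26 rose and 0 fell, where 0.81% of all tested genes passed as higher and 1.53% as lower. The list median was 0.06 (all genes -0.02). Foxm1, a factor that turns on genes for mitosis, was -2.72 ± 0.61 in 8c and -3.83 ± 0.35 in 2c (SD, n = 5 each), a difference of 1.11 (SE 0.191, adjusted p = 0.0156). Cdkn1a, the p21 inhibitor of cyclin-dependent kinases, was -0.14 ± 0.70 in 8c and -0.90 ± 0.96 in 2c, a difference of 0.76 (SE 0.144, adjusted p = 0.0244). Cdkn2c, the p18 inhibitor of Cdk4 and Cdk6, differed by 1.54 (SE 0.315, adjusted p = 0.0333) and was above background on 4 of 5 8c arrays and 1 of 5 2c arrays, so that it entered the test through the 8c arrays. With its dim arrays at their floor the difference was 0.75. All 3 were higher in 5 of 5 experiments.

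For 4c against 2c 0 of the 26 pathway genes passed limma's test, 0 had an unadjusted p under 0.05, and the list median was 0.00 (all genes -0.03). Cdkn1a differed there by 0.17 (SE 0.144, adjusted p = 0.618) and Myc, a factor that drives growth and G1 entry, by 0.07 (SE 0.077, adjusted p = 0.727). For 8c against 4c 2 rose, where 0.628% of all genes passed as higher, Foxm1 by 1.34 (SE 0.191, adjusted p = 0.00963) and Cdkn2c by 1.77 (SE 0.315, adjusted p = 0.0364), with Cdkn2c above background on 4 of 5 8c arrays and 1 of 5 4c arrays and 0.95 higher with its dim arrays at their floor. No pathway gene passed in these comparisons without the arrays with acinar transcripts, without experiments 1 and 2, or without any 1 of experiments 3, 4 and 5, and 1 or 2 did without experiment 1 or 2. Of all 17040 genes, 0 passed in any comparison without the acinar arrays. Without experiments 1 and 2 it was 1 for 8c against 2c, 0 for 4c against 2c and 1 for 8c against 4c.

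The genes that E2F turns on were followed through a second list. Of 48 E2F target genes, mostly of the replication machinery, 36 were tested. The list was chosen with earlier results of these data known, so its counts beside those of all genes are no independent test. For 4c against 2c 7 fell and 0 rose, where 0.998% of all tested genes passed as lower and 0.264% as higher. Of the 36 differences 32 were negative, and the median was -0.41 (all genes -0.03). The 2c arrays of this comparison are those with the higher Kupffer, stellate and endothelial marker sums given above. The 7 were the replicative helicase subunits Mcm2 (-0.64), Mcm3 (-1.27) and Mcm5 (-1.11), the helicase cofactor subunit Gins3, the primase Prim1 (-0.45), the polymerase delta subunit Pold1 (-0.47) and the repair gene Brca1 (-1.34, above background on 3 of 5 4c arrays), each with an adjusted p between 0.0337 and 0.0497 and lower in 5 of 5 experiments. Gins3 was well above background on no 4c array and on 3 of 5 2c arrays, and was at least 1.28-fold lower in 4c with the 4c arrays at their floor. It was also well above background on 3 of 5 8c arrays. Without the 2c arrays it would not have entered the test, and it counts among the 7. All 7 have a promoter in RefSeq's table and 4 of them, Mcm2, Mcm3, Mcm5 and Gins3, hold an E2F word.

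For 8c against 2c 6 target genes rose and 1 fell, against the 0.81% and 1.53% of all genes given above, with a median of 0.11 (all genes -0.02). Those that rose were Cdk1 (2.99), Top2a (2.82), Ccna2 (2.79), Rrm2 (2.77), Mki67 (2.37) and Tk1 (0.81). Cdk1 and the cyclin Ccna2 act from S phase to mitosis, Top2a untangles chromosomes, Mki67 marks cycling cells, and Rrm2 and Tk1 supply nucleotides. Mcm2 fell by 0.71 on the log2 scale, to -1.96 ± 0.35 in 8c against -1.25 ± 0.44 in 2c (SD, n = 5 each). The probes of Ccna2 and Top2a were above background on 3 and 1 of 5 2c arrays and on 5 and 4 of 5 8c arrays. With the few 4c arrays given below, both entered the test through the 8c arrays. Both count among the 6 genes here and the 11 for 8c against 4c. With the dim arrays at their floor their differences to 2c were 2.30 and 2.19. For 8c against 4c 11 rose and 0 fell, against 0.628% and 0.0117% of all genes, with a median of 0.52 (all genes 0.01) and 32 of 36 differences positive. Named by size they were Cdk1 (4.29), Rrm2 (4.17), Ccna2 (4.12), Mki67 (3.12) and Top2a (3.09), followed among the lowest adjusted p by Tk1 (1.11), Rrm1 (0.66) and Prim1 (0.46). Ccna2 was above background on 1 of 5 4c arrays, Top2a on 2 of 5, and Cdk1, Rrm2 and Mki67 on 4 of 5. With dim arrays raised to the floor of the array, chosen after seeing the data, the differences to 4c were 3.92 for Cdk1, 3.81 for Rrm2, 2.96 for Ccna2, 2.91 for Mki67 and 2.31 for Top2a. Without the arrays with acinar transcripts 0 of the 36 passed in any of the 3 comparisons, as did 0 of all 17040 genes. The list medians were then 0.04 for 8c against 2c, -0.49 for 4c against 2c and 0.63 for 8c against 4c. Of the 11, 8 have a promoter in the table and 2 of these hold a word.

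In experiment 2 the median 4c difference of the targets was -0.10, against -0.58, -0.57, -0.36 and -0.59 in experiments 1, 3, 4 and 5. Without experiments 1 and 2 the 4c median was -0.49 with 34 of 36 negative, and 0 of the 36 passed, as did 0 of all 17040 genes. Leaving out single experiments left 0 to 2 of the 7 calls in number, 1 without experiment 2. For 4c against 2c 1 target passed as lower under normexp and 1 under quantile normalization. With the slide beside the block it was 3, with dim arrays at their floor 5, and without the experiment as a block 0.

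**Figure D4:**
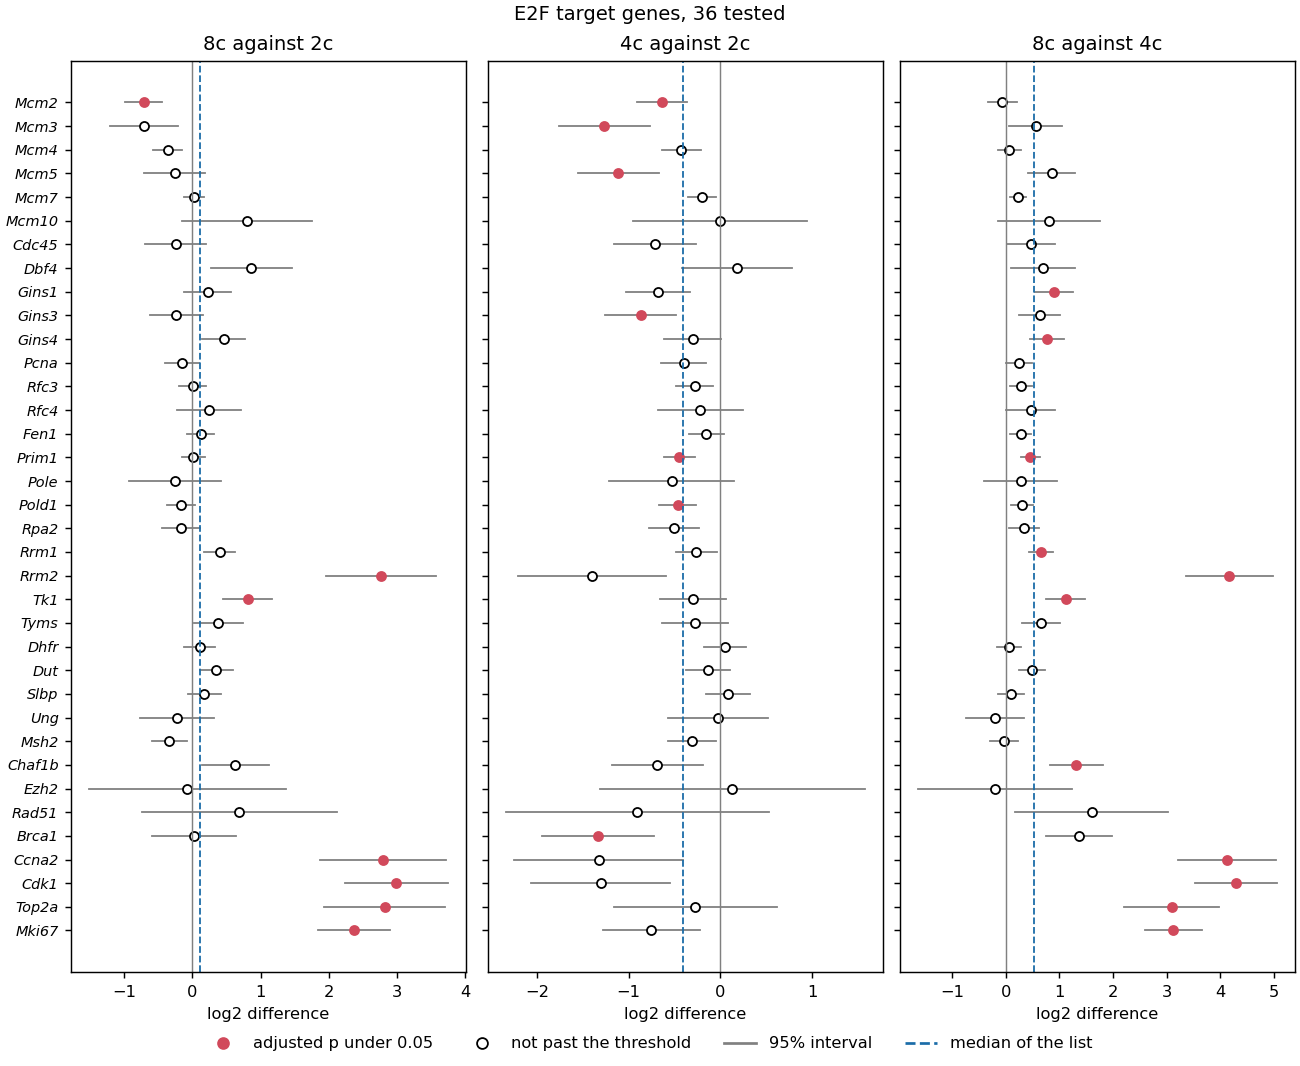
Log2 difference between fractions (horizontal axis) for 36 tested E2F target genes (vertical axis), with 95% intervals, filled points where the adjusted p is under 0.05 and a dashed line at the list's median. Most points lie left of 0 for 4c against 2c and right of 0 for 8c against 4c, with Rrm2, Ccna2, Cdk1, Top2a and Mki67 far to the right in both 8c panels.

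The experiments with rats of 12 and 14 weeks were set against those with rats of 5 and 6 weeks, with 6 arrays from 2 experiments and 9 arrays from 3. Ccne1 averaged -5.50 ± 0.70 at 12 to 14 weeks and -4.37 ± 0.66 at 5 to 6 weeks (SD over arrays), a difference of -1.13 (SE 0.326, adjusted p = 0.0702). Ccnd1 averaged -2.36 ± 1.33 at 12 to 14 weeks and -1.01 ± 0.34 at 5 to 6 weeks, a difference of -1.35 (SE 0.467, adjusted p = 0.123). For age 0 of the 8 genes passed limma's test with the experiment as a random block, 2 of 8 had an unadjusted p under 0.05, against 3.8% and 19.4% of all tested genes. Without experiment 2 the differences were -0.62 for Ccne1 and -0.15 for Ccnd1 (adjusted p = 0.373 and 0.794), and without experiment 1 they were -1.64 and -2.54 (adjusted p = 0.0345 and 0.00116). In that last fit the older rats are experiment 2 alone, so its p-values rest on 3 fractions of 1 experiment and are too small as a test of age. With the slide as a term, chosen after seeing the data, the differences were -0.79 and -1.13 (adjusted p = 0.587 and 0.604), and slide 1 held both older experiments while slide 2 held none. Within slide 1, where the younger rats are represented by 2 arrays of experiment 3, 1 of 2c and 1 of 4c, they were -0.68 and -1.09 (adjusted p = 0.856 and 0.875).

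Pancreatic acinar transcripts were high on 5 of 6 arrays at 12 to 14 weeks and on 1 of 9 at 5 to 6 weeks, and their part in the differences with age was not tested. Among the E2F targets 36 of 36 differences with age were negative, with a median of -0.53 (all genes -0.02), and 3 passed, Fen1 (-0.73, adjusted p = 0.00491), Mcm7 (-0.64, 0.0361) and Chaf1b (-2.05, 0.0363). In the pathway Cdkn2c alone passed (-1.56, adjusted p = 0.0499), 1 of 26 tested and above background on 6 of 15 arrays. Of all tested genes 3.8% passed for age, and the pathway count is near that share. Whether the 8c against 2c difference depended on age was tested with an interaction term, and 0 of 17040 genes passed limma's test, with 4.65% at an unadjusted p under 0.05. Of the 8 genes only Ccne2 had an unadjusted p under 0.05 (1.35, SE 0.503, adjusted p = 0.948).

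The genes with the pattern most like each member were found by Pearson's r of levels over the 15 arrays, after the mean of each experiment was removed, among 9139 genes above background on all arrays. For Ccne1 they were Tsx (r = 0.958, rho = 0.950), Ccdc71l (0.934, 0.900) and Apool (0.917, 0.814). For E2f1 they were Ggact (r = 0.959, rho = 0.968), Hspb1 (0.922, 0.939) and C16h8orf48 (0.865, 0.793). For E2f3 they were Sbk1 (0.961), Srek1ip1 (0.953) and Tcea1 (0.949), and for Rb1 Isca2 (0.934), Aknad1 (0.915) and Adtrp (0.912). For Ccnd3 they were Pgrmc1 (0.915), Phyh (0.908) and Ces1e (0.905), and for Ccnd1 Cdk5rap1 (0.897), Lrrc56 (0.847) and Chchd4 (0.794). The highest of 9139 values are high by selection, and all points share arrays and scaling. Without removing the experiment means, r over these pairs ranged from -0.465 (E2f3 with Sbk1) to 0.941 (Rb1 with Adtrp), and was -0.135 for Ccne1 with Tsx, 0.223 for E2f3 with Tcea1 and 0.235 for Ccnd1 with Lrrc56. None of these genes was one of the E2F targets or of the pathway. Targets dim on any array, among them Cdk1, Rrm2, Ccna2, Mki67 and Top2a, were no candidates, so their absence was set by the filter.

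The probes of Ccne1, Ccne2, E2f1 and Rb1 lie at chr1:90568197-90568256 (minus strand), chr5:25043721-25043780 (plus), chr3:145032731-145032790 (minus) and chr15:53829645-53829704 (minus) of rn4, the build of the array files. The 2 Ccnd1 probes lie at chr1:205357553-205357612 and chr1:205361630-205361689 (minus), and those of E2f7 at chr7:49748927-49748986 (tested) and chr7:49753503-49753562 (plus). The files give no position for the probes of E2f3 and Ccnd3. With no annotation of rn4 used here, the part of the gene under each probe is not stated.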

How the data were processed

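RNA of 15 sorted fractions was measured on one-colour Cy3 arrays. The authors deposited scanner files whose processed signal is an intensity on a linear scale, background-subtracted by Agilent Feature Extraction, version 11.5.1.1 per the file headers and 10.7.3.1 per the submitters' processing notes. The deposited value table holds the same linear intensity (correlation with the scanner values at least 0.99999, column medians 3.85 to 7.80, no centring).

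Outlier spots (264 to 539 per array) were left out, spots of a probe averaged, and log2 values scaled to each array's 75th percentile over 16194 probes well above background on all arrays. No spot was saturated, and 39.5% to 47.3% of 45598 probes per array were well above background. Genes entered the fit by their brightest probe that exceeded background on 5 or more of the 15 arrays. Fits used limma 3.58.1 (lmFit, eBayes) in R 4.3.3 over 17040 genes, two-sided, adjusted after Benjamini and Hochberg, threshold 0.05, with the experiment as a fixed block, since the design text and the shared ages put the fractions of a number in 1 experiment. Deviations from group means correlated at a median of 0.586 (0.0372 to 0.790) within 15 pairs of arrays of 1 experiment and -0.13 (-0.621 to 0.411) in 60 other pairs. Age used duplicateCorrelation (0.385). On simulated data for 8c against 2c with 17040 genes, 34% of changes of log2 0.5, 78% of 1, 80% of -1 and 100% of 2 were recovered, with 7 of 153 calls on unchanged genes. The simulated noise was independent for each gene and array. Shifts shared by many genes on an array, as from other cells' RNA, were not in it, so these rates may not hold here. Members and lists were chosen with earlier results of these data known. Named were all members, passing genes of each list (at most 8 by adjusted p, or the 2 with the highest levels), and the 3 genes most like each member that was above background on at least 12 arrays. No source says how many animals an experiment used. Alternatives covered background correction, scaling, the filter, probes, the block, the slide and left-out arrays.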

Additional observations from a re-analysis of the deposited data

Results flagged for a closer look

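In experiment 2, the level of Ccnd1 stood apart from the other 4 arrays of its group in each fraction: -3.36 on the 2c array, -3.32 on the 4c array and -3.97 on the 8c array. Of 24 sets of 5 levels examined, chance marks about 1 in 20. All 3 arrays also carried pancreatic acinar transcripts, with median levels of 5.90, 2.69 and 4.78, and experiment 1, whose 2c and 8c arrays carried them too (2.65 and 0.12), had Ccnd1 levels of -1.08 and -1.30 on those arrays. Their part in the result was not tested.

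The E2f1 difference for 8c against 4c was positive in both experiments with rats of 12 to 14 weeks (0.14 and 0.48) and negative in the 3 with rats of 5 to 6 weeks (-0.79, -0.29 and -0.31). The older mean minus the younger mean of this difference was 0.77, and the difference was not tested.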

How the results depend on the processing

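Members passing for 4c against 2c came to 0 under normexp, quantile normalization (Ccne1 -0.85, adjusted p = 0.0570), no filter on dim probes, probes above background on all arrays (where Ccne1 was not tested), no replicate block, the slide replacing the experiment or beside the block, within slide 1, within slide 2, without acinar arrays, without experiments 1 and 2, and with dim arrays at their floor (added after seeing the data). It came to 0 to 1 with single replicates or arrays left out, and to 0 to 2 for age.

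The number of genes passing was 399 for 8c against 2c, 215 for 4c against 2c and 109 for 8c against 4c. Under normexp it was 184, 54 and 65, with no filter 228, 0 (3373 at an unadjusted p under 0.05) and 76, and with probes above background on all arrays 218, 126 and 40. Without the pairing by experiment (no replicate block) it was 39, 3 and 0 (499 unadjusted), and 91, 5 and 41 when the slide replaced the experiment. With the slide beside the replicate block it was 240, 110 and 66, the same as without the 8c array of experiment 3. It was 0, 0 and 1 within slide 1, 0, 0 and 0 within slide 2, 0, 0 and 0 with acinar arrays left out, and 1, 0 and 1 without experiments 1 and 2, with 550 to 2394 genes at an unadjusted p under 0.05 in these 4 settings. With dim arrays at their floor 4c against 2c gave 132. With single experiments or arrays left out the counts ran from 103 to 525, 3 to 543 and 51 to 142. For age the count was 647, and 146 under normexp, 202 with no filter, 38 with the slide as a term, 10 within slide 1 and 200 to 1408 without single experiments. The age interaction gave 0 throughout (792 unadjusted).

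Scaling moved the balance of calls. Of those for 8c against 2c 34.6% were higher in 8c, and 46.8% with quantile normalization, 46.6% with the median and 54.2% when scaled to all probes' 75th percentile. For 4c against 2c 20.9% were higher in 4c, and 39.3% with that percentile. The median of all genes was -0.11 for 8c against 2c under normexp and -0.15 with no filter. No other member crossed the threshold between fractions. E2f1, E2f7, Ccne1, Ccne2 and Ccnd3 kept a negative sign for 8c against 2c in every setting that gave a value. For E2f7 these settings used its brighter probe only. Its second probe, too dim to be tested, had a higher mean in 8c (-6.88) than in 2c (-7.78). Signal over background limits E2f7, E2f8, Ccne2 and Ccnd2.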
